A study of Mus musculus with 12 samples.

Results

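The mammalian circadian clock is a transcriptional feedback loop, and 10 of its genes were followed here through activation and inhibition of STING (the adaptor protein that relays the sensing of DNA in the cytosol) in mouse macrophages. The members were the entries of the deposited table with the symbols Nr1d1, Nr1d2, Per1, Per2, Cry1, Arntl, Clock, Dbp, Tef and Bhlhe40, which are 10 of 24062 gene entries. All 10 also passed the filter on low values, which 11440 entries passed. The members were chosen by symbol with their normalised counts and log2 changes in these same libraries already known, the lower Nr1d1 under CMA among them. Their changes are therefore given as a description, and whether a member passed the threshold of the fit is not evidence that the clock was singled out.

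The cells were primary bone marrow derived macrophages of wild-type C57Bl/6 mice at passage 1. They received C-178 (a covalent inhibitor of STING) plus CMA (a compound that activates the mouse form of STING), CMA alone, C-178 alone, or no stimulation, with 3 libraries in each of the 4 groups, and treatments lasted 2 h. Doses, the number of mice, the hour of harvest and any prior synchronisation of the cultures are not given in the labels, and nothing there says that the 3 libraries of a group came from separate cultures, so the p-values measure the spread between libraries. The RNA extraction text in the labels speaks of embryonic fibroblasts, while every other label says macrophages.

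In the clock loop, CLOCK and BMAL1 (the product of Arntl) bind E-box sequences and activate Per, Cry, Nr1d, Dbp, Tef and Bhlhe40 genes, and PER and CRY proteins then inhibit CLOCK and BMAL1. The REV-ERB receptors, encoded by Nr1d1 and Nr1d2, close a further loop by repressing Arntl through RORE sequences, and in macrophages they also repress inflammatory and chemokine genes. Clock transcripts oscillate over the day in macrophages, as in most cells of the body.

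Promoter windows are shown for 4 members because they hold the letters through which the loop is known to be wired. Each runs from 250 bases before to 50 bases after a RefSeq transcription start (build GRCm38.p6, 300 bases, read on the strand of the gene), and windows were at hand for 8 of the 10 members. Capitals mark the E-box CACGTG in Per1, Cry1 and Tef and the RORE in Arntl.
Per1, chr11:69098699-69098998, plus strand: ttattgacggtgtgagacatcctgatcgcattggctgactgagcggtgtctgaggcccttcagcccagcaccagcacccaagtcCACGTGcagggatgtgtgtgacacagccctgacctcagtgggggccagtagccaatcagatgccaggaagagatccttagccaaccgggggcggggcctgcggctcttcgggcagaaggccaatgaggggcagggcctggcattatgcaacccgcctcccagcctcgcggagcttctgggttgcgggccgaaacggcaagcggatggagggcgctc
Cry1, chr10:85185005-85185304, minus strand: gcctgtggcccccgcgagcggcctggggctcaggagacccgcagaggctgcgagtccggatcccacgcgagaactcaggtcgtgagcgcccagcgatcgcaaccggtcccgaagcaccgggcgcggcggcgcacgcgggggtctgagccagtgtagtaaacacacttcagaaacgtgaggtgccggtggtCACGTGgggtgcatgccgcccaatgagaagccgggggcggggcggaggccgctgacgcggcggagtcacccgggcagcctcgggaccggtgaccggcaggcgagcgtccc
Tef, chr15:81802423-81802722, plus strand: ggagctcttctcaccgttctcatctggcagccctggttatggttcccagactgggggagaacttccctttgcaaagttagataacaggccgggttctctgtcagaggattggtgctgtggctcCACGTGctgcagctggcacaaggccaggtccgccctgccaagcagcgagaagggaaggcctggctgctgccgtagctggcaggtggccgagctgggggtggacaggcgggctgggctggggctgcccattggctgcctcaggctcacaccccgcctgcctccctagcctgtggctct
Arntl, chr7:113207261-113207560, plus strand: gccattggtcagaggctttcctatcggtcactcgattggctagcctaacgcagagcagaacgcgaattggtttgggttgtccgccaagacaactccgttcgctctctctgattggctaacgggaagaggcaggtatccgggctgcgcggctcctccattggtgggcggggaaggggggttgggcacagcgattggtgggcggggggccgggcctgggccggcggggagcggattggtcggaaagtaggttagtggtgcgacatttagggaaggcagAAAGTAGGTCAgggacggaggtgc
The E-box began 166 bases before the start in Per1, 60 before it in Cry1 and 127 before it in Tef, and a second Tef window held one 138 bases before its start. The RORE of Arntl began at base 27 of the transcript. On either strand, CACGTG was found in 4 of the 13 windows of these 8 members, which belong to 3 genes, where 7.15% of 32851 promoter windows held it. The windows of Nr1d1, Nr1d2, Dbp, Arntl and Clock held no CACGTG. A RORE was found in 1 of the 13, where 0.384% of all windows held it, and the other Arntl window held none. Some genes have several, partly overlapping windows, so the windows are not independent. No member window held the D-box TTANGTAA (2.32% of windows) or the full cyclic AMP response element TGACGTCA (1.79%), or an interferon-stimulated response element (3.44%). The shorter TGACG, which lies within the full element, was in 3 of the 13, of Cry1 and Per1 (20.8% of all windows), and a kappaB motif in 2 of the 13, of Clock and Tef (8.46%). These matches describe letters in the windows and not bound sites.

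The values are the deposited counts scaled between libraries, called normalised counts below. Depth ranged over 7.049 to 36.438 M reads per library, and all 3 CMA libraries were shallower than the unstimulated ones. The first library of C-178 plus CMA and the first of C-178 were by far the deepest of their groups, and the spread between libraries was widest with C-178 plus CMA (median SD of log2 values 0.34, against 0.148 with CMA, 0.179 with C-178 and 0.115 without stimulation). Macrophage markers summed to 290253 or more normalised counts in every library, within which Lyz2, Csf1r and Itgam were among the highest. Fibroblast markers summed to 764 to 2088 with C-178 plus CMA, 1661 to 2998 with CMA, 1677 to 1954 with C-178 and 1325 to 1492 without stimulation. Of the 10 fibroblast markers, Lum was at 0 in 3 groups, and of 9 tested, 2 rose and 1 fell with CMA. Of 9 macrophage markers tested, 3 rose and 2 fell with CMA. Beside these and the other marker counts, 19.4% of all tested genes were higher with CMA and 17.9% were lower. Neutrophil markers summed to 594 to 985 with C-178 plus CMA and 833 to 974 with CMA. Their sums were 813 to 875 with C-178 and 853 to 1203 without stimulation, and of 6 tested, 0 rose and 0 fell with CMA. The listed macrophage marker Adgre1 and neutrophil marker Ly6g have no entry. Lymphoid markers summed to 344 to 422 with C-178 plus CMA, 296 to 402 with CMA, 422 to 482 with C-178 and 529 to 692 without stimulation, and the 1 that was tested (Cd79b) fell with CMA by 0.76 on the log2 scale. Dendritic cell markers summed to 34.3 to 72.6 with C-178 plus CMA, 33.0 to 51.1 with CMA, 55.7 to 74.9 with C-178 and 79.1 to 92.6 without stimulation, and 1 of the 2 tested (Batf3) fell with CMA by 1.08. The part of these markers in the clock gene values was not tested. In bulk RNA a smaller share of cells with a transcript cannot be told apart from less transcript per cell.

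Per kilobase of its longest GENCODE M21 transcript, Tef was the highest member in unstimulated cells (216 ± 15.7 normalised counts per kb, SD, n = 3 here and below), followed by Dbp (188 ± 6.69), Nr1d2 (170.5 ± 11.8), Per1 (88.7 ± 12.6), Nr1d1 (73.5 ± 11.0), Arntl (67.3 ± 3.66), Clock (51.3 ± 5.57), Bhlhe40 (42.4 ± 1.79), Cry1 (26.7 ± 3.32) and Per2 (10.5 ± 2.74). In that order, the ranges of Per1 and Nr1d1 overlapped, as did those of Nr1d1 and Arntl, while the other neighbours were clear of each other. With CMA the order was Nr1d2, Tef, Clock, Arntl, Dbp, Bhlhe40, Per1, Cry1, Nr1d1 and Per2. Nr1d2 then stood at 405 ± 18.4 per kb and Nr1d1 at 3.99 ± 3.90, and the ranges overlapped between Arntl and Dbp, between Bhlhe40, Per1 and Cry1 in turn, and between Nr1d1 and Per2.

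**Figure D1:**
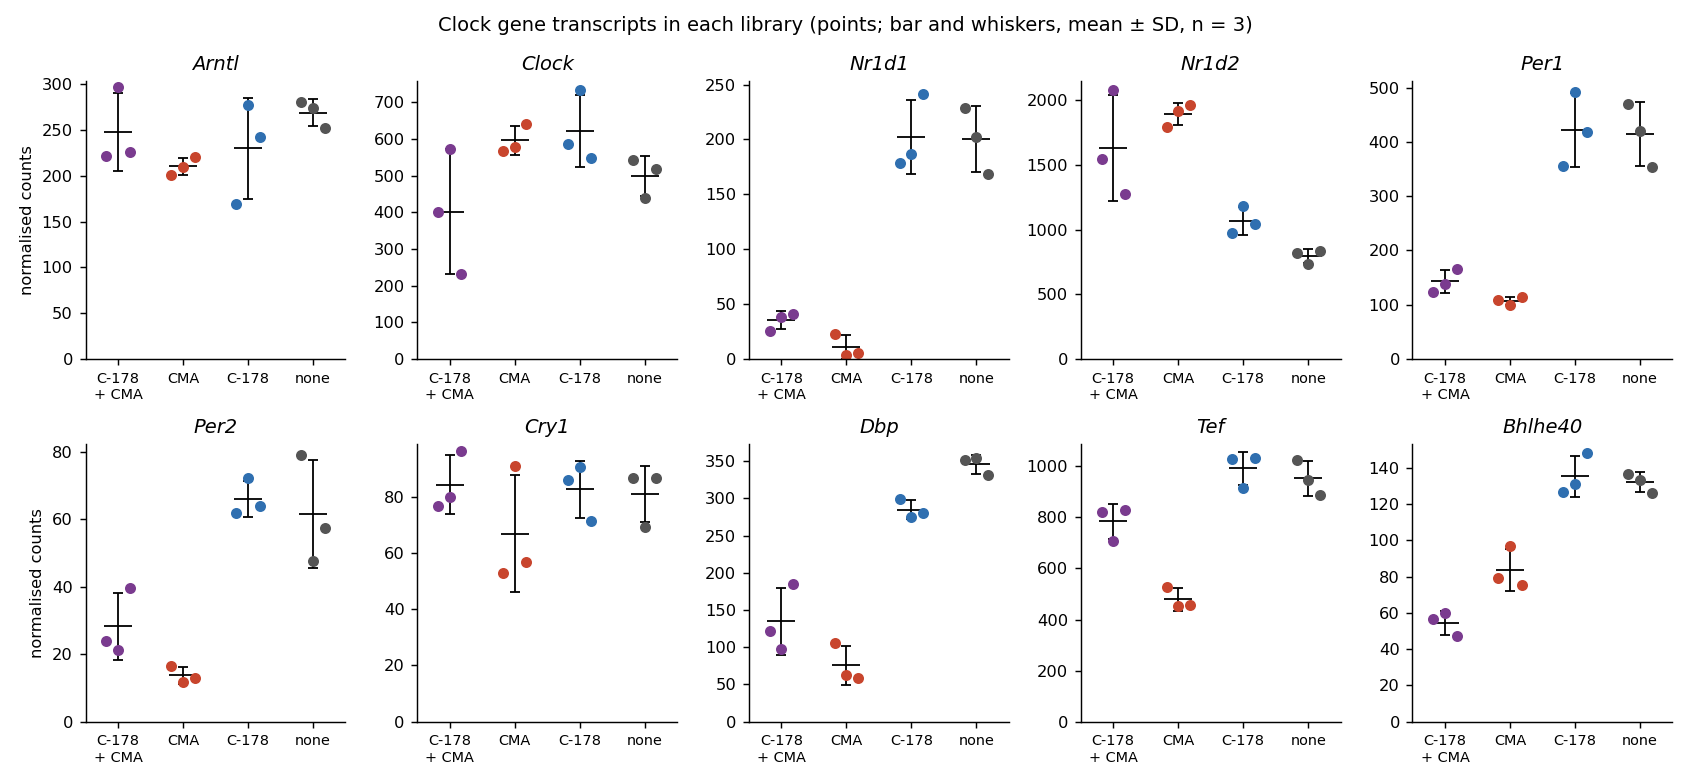
Normalised counts (y axis, starting at 0 in each panel) of the 10 clock genes in 12 libraries, with points for libraries and a bar with whiskers for the mean ± SD of each group (n = 3). CMA and C-178 plus CMA libraries sit below the others for Nr1d1, Per1, Per2, Dbp, Tef and Bhlhe40, above them for Nr1d2, and among them for Cry1.

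The first question was what CMA did to the loop. With CMA, 6 members were lower and 1 was higher at an adjusted p under 0.05 in a limma fit over all genes, and 3 did not pass, where 17.9% of all tested genes were lower and 19.4% were higher. Since these changes were known when the members were picked, the count says nothing about clock genes as a class. The median member changed by -0.83 on the log2 scale and the median of all tested genes by -0.01.

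The REV-ERB receptors moved apart. Nr1d1 (REV-ERBα, chr11:98767932-98775333, minus strand in mm10) had 25.9, 38.6 and 41.3 normalised counts with C-178 plus CMA, 23.1, 3.95 and 5.51 with CMA, 179, 187 and 241 with C-178, and 229, 202 and 169 without stimulation. No CMA or combined library came near the libraries without CMA, and within the CMA group the first library stood above the other two. The CMA values rest on 19 reads over 3 libraries (95% exact Poisson interval 11.4 to 29.7, counting error only), against 907 reads without stimulation. The mean was 18.4-fold lower with CMA than without stimulation, and the fitted change was -4.44 ± 0.44 (log2 of normalised count + 1, ± SE), or 21.7-fold. The added 1 shrinks changes of low genes, but the fit averages log values and gave a larger fall here than the means. Over the alternatives the fitted change ran between -5.14, without the first CMA library, and -3.59, with a pseudocount of 8, and it was -4.14 with both edgeR and DESeq2. Without that library the mean was 42.3-fold lower with CMA.

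Nr1d2 (REV-ERBβ, chr14:18204054-18239127, minus strand) went the other way. It had 1542, 2079 and 1273 normalised counts with C-178 plus CMA, 1793, 1916 and 1958 with CMA, 969.9, 1180.4 and 1046 with C-178, and 820.3, 732 and 833 without stimulation. The groups with CMA lay entirely above those without it, and the change with CMA against no stimulation was 1.25 ± 0.16 (log2 ± SE). Per kb, Nr1d2 exceeded Nr1d1 by 18 to 34.8 times in C-178 plus CMA libraries and by 45.4 to 283 times in CMA libraries, against 2.53 to 3.69 times in C-178 libraries and 2.09 to 2.88 times in unstimulated libraries. The ratios in CMA libraries rest on 14, 2 and 3 Nr1d1 reads.

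**Figure D2:**
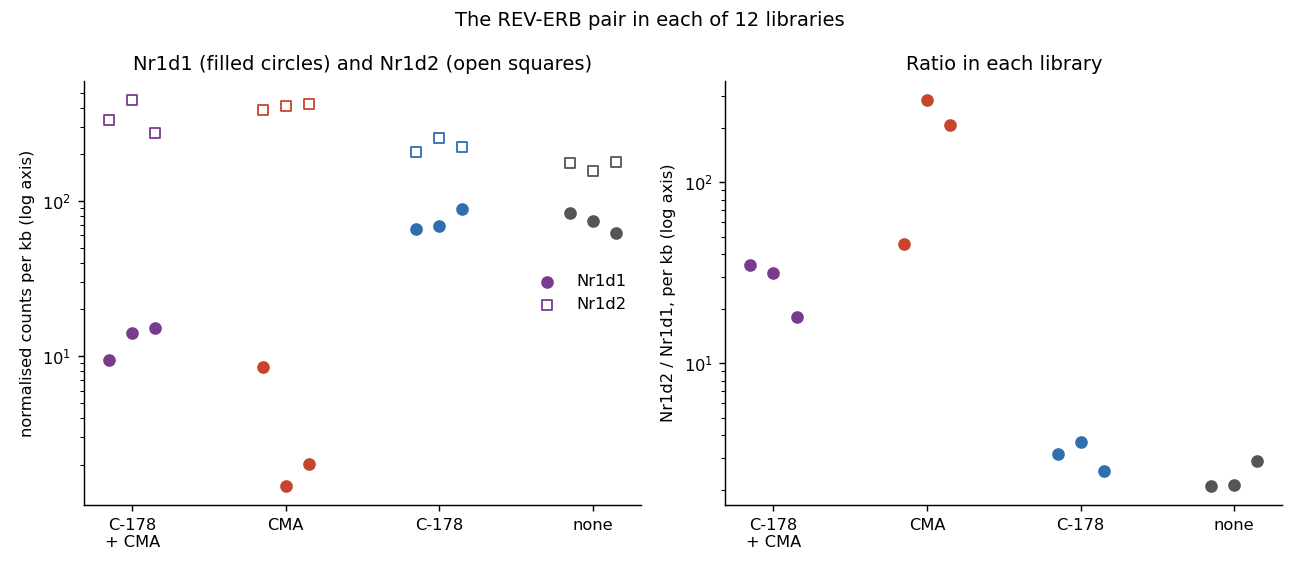
The REV-ERB genes in 12 libraries, by group. Left, normalised counts per kb of Nr1d1 (filled circles) and Nr1d2 (open squares) on a log axis; right, the ratio Nr1d2 to Nr1d1 on a log axis, which is 18 or more in every library with CMA and at most 3.69 in every library without it.

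Thra, which encodes a thyroid hormone receptor, lies on the opposite strand and shares 1075 bases with Nr1d1. It had 78.9, 105.7 and 119 normalised counts with C-178 plus CMA, 105.5, 59.2 and 71.6 with CMA, 143, 170.1 and 128 with C-178, and 156, 139 and 130.3 without stimulation. As for Nr1d1, the first CMA library was the highest of its group. That was also so for the members Per2, Dbp and Tef, and not for the others. The source of the likeness was not tested. Thra fell with CMA by 0.88 ± 0.22 (log2 ± SE, limma, adjusted p = 0.0064). The library kit keeps the strand, but no source used here gives the strand setting of the counting, so reads in the shared bases cannot be assigned to either gene with certainty.

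Of the genes for inhibitors of CLOCK and BMAL1, both Per genes were lower with CMA. Per1 (chr11:69095217-69109960, plus strand) had 123.3, 138.5 and 166.5 normalised counts with C-178 plus CMA, 108.8, 98.7 and 113.8 with CMA, 356.4, 492.3 and 418.5 with C-178, and 470.6, 419.2 and 353.0 without stimulation. The change with CMA was -1.93 ± 0.17 (log2 ± SE), and the groups with and without CMA did not overlap. Per2 (chr1:91415982-91459324, minus strand) had 23.9, 21.4 and 39.7 normalised counts with C-178 plus CMA, 16.5, 11.8 and 12.8 with CMA, 62.0, 72.3 and 63.9 with C-178, and 79.1, 47.8 and 57.6 without stimulation. It too was lower in every library with CMA than in every library without it, and its change with CMA was -2.07 ± 0.27 on 23 reads in the CMA group (95% exact Poisson interval 14.6 to 34.5).

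Cry1 (chr10:85131700-85185064, minus strand), the partner of the PER proteins in repression, had 76.6, 80.0 and 96.3 normalised counts with C-178 plus CMA, 52.7, 90.8 and 56.9 with CMA, 86.1, 90.3 and 71.2 with C-178, and 86.7, 69.3 and 86.7 without stimulation. All 4 groups overlapped, and the change with CMA was -0.31 ± 0.22 (log2 ± SE, 95% interval -0.77 to 0.16), so a modest change in either direction could not be told from none.

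Bhlhe40 (DEC1, chr6:108660629-108666925, plus strand), which competes for E-boxes as a repressor, had 56.4, 60.0 and 47.4 normalised counts with C-178 plus CMA, 79.1, 96.7 and 75.3 with CMA, 127, 131 and 148 with C-178, and 137, 133 and 126 without stimulation. The groups formed 3 separate steps, with the combination lowest, CMA between, and the 2 groups without CMA together at the top. The change with CMA was -0.66 ± 0.16 (log2 ± SE). An antisense entry that shares 306 bases with it, 0610040F04Rik, was listed at 0 in all 12 libraries.

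The PAR bZIP factors, output regulators that activate genes through D-boxes, were lower with CMA. Dbp (chr7:45705088-45710203, plus strand) had 122, 97.1 and 185 normalised counts with C-178 plus CMA, 105.5, 63.2 and 58.7 with CMA, 299, 275 and 280.4 with C-178, and 351, 354 and 332 without stimulation. Its change with CMA was -2.22 ± 0.24 (log2 ± SE), and the first CMA library overlapped the combined group. Sphk2, a sphingosine kinase gene, shares 737 bases with Dbp on the opposite strand and had 1020.5 ± 196 normalised counts with C-178 plus CMA, 582 ± 66.5 with CMA, 1265 ± 96.2 with C-178 and 1257 ± 146 without stimulation. It fell with CMA by 1.11 ± 0.15 (log2 ± SE, limma, adjusted p = 4.5e-05), and the share of Dbp reads that could belong to it is not known. Tef (chr15:81802421-81826863, plus strand) had 821, 707 and 829.7 normalised counts with C-178 plus CMA, 529, 452 and 455 with CMA, 1028, 917 and 1032 with C-178, and 1026, 945 and 888 without stimulation. The CMA group stood alone at the bottom, and the change was -0.99 ± 0.12.

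Neither activator at the head of the loop passed with CMA. Arntl (chr7:113207465-113314126, plus strand) had 221, 297 and 226 normalised counts with C-178 plus CMA, 201, 209 and 220.3 with CMA, 169.6, 277 and 243 with C-178, and 280.5, 274 and 252 without stimulation. Every CMA library lay below every unstimulated library, but the C-178 libraries spanned both, and the change with CMA of -0.35 ± 0.18 (log2 ± SE, 95% interval -0.74 to 0.03) did not pass in the fit over all 12 libraries. Clock (chr5:76209868-76304792, minus strand) had 401, 573 and 232 normalised counts with C-178 plus CMA, 569, 578 and 642 with CMA, 587, 733 and 548 with C-178, and 543, 439 and 518 without stimulation. Its change with CMA of 0.26 ± 0.25 did not pass, and the 3 combined libraries differed among themselves more than the groups did. With only the CMA and unstimulated libraries in the fit, both genes passed (adjusted p = 0.0115 for Arntl and 0.0445 for Clock, limma), and both also passed with libraries weighted by quality.

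With C-178 alone no member passed. In the limma fit, 0 of 10 members were higher and 0 were lower with C-178 than without stimulation, where 0.0962% of all tested genes were higher and 0 were lower. At an unadjusted p under 0.05 there was 1 member (Nr1d2, 0.42 ± 0.16 log2), and edgeR and DESeq2 called 0. Of all 11440 tested genes, 238 were higher and 182 lower at that unadjusted level. Over all genes edgeR called 12 higher and 1 lower, and DESeq2 34 and 4. The median log2 change was 0.03 over members and -0.01 over all tested genes. Every C-178 library exceeded every unstimulated library for Nr1d2 and Clock, and every one was lower for Dbp, while 7 members overlapped. How many of all tested genes separated in this way was not counted, so nothing is read from that number of members. The 95% intervals for the C-178 change were within -0.20 and 0.32 (log2) for Tef and were widest for Nr1d1, at -0.93 to 0.96.

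A second question was how much of the CMA change was left when C-178 was present. Set against C-178 alone, 6 members were lower and 1 was higher with C-178 plus CMA in the limma fit, and 3 did not pass, where 12.6% of all tested genes were lower and 13.5% were higher. The median log2 change was -0.92 over members and 0.01 over all tested genes. The libraries in this comparison and those of CMA against no stimulation are all different ones. The members that were lower were Nr1d1 (-2.50 ± 0.44 log2), Per1 (-1.56 ± 0.17), Bhlhe40 (-1.30 ± 0.16), Per2 (-1.24 ± 0.27), Dbp (-1.13 ± 0.24) and Clock (-0.71 ± 0.25), and Nr1d2 was higher (0.59 ± 0.16). The Clock call was lost in 9 of 17 alternative analyses, and without the third combined library its change was -0.37 (adjusted p = 0.13). Leaving out the first combined library or any C-178 library gave Clock an adjusted p of 0.0675 to 0.17. The Nr1d2 call was lost with only these 2 groups in the fit (adjusted p = 0.10) and without the first C-178 library (0.0511). Tef, at -0.34 ± 0.12, did not pass although every combined library was below every C-178 library.

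As a share of the log2 change that CMA gave on its own, the change under C-178 was 80.5% for Per1, 60.0% for Per2, 56.4% for Nr1d1, 50.6% for Dbp, 47.2% for Nr1d2 and 34% for Tef. For Bhlhe40 it was 197%, and the gene was lower with the combination than with CMA. These shares carry no error, and of these genes only Tef passed the test of such a difference given below. The share for both compounds against no stimulation was 80.8% for Nr1d2, 79.2% for Per1, 63.1% for Dbp and 56% for Nr1d1. It was 54% for Per2, 28.1% for Tef and 192% for Bhlhe40. Of the 7 members that passed with CMA alone, all 7 changed in the same direction under C-178, against 3502 of 4271 among all tested genes. Of the 7, 6 passed again, against 1849 of the 4271 (43.3%) that passed again in the same direction. Nothing is read from these shares, because the CMA changes were known when the members were chosen. The members with a CMA change that did not pass, Arntl, Cry1 and Clock, had the opposite sign under C-178.

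**Figure D3:**
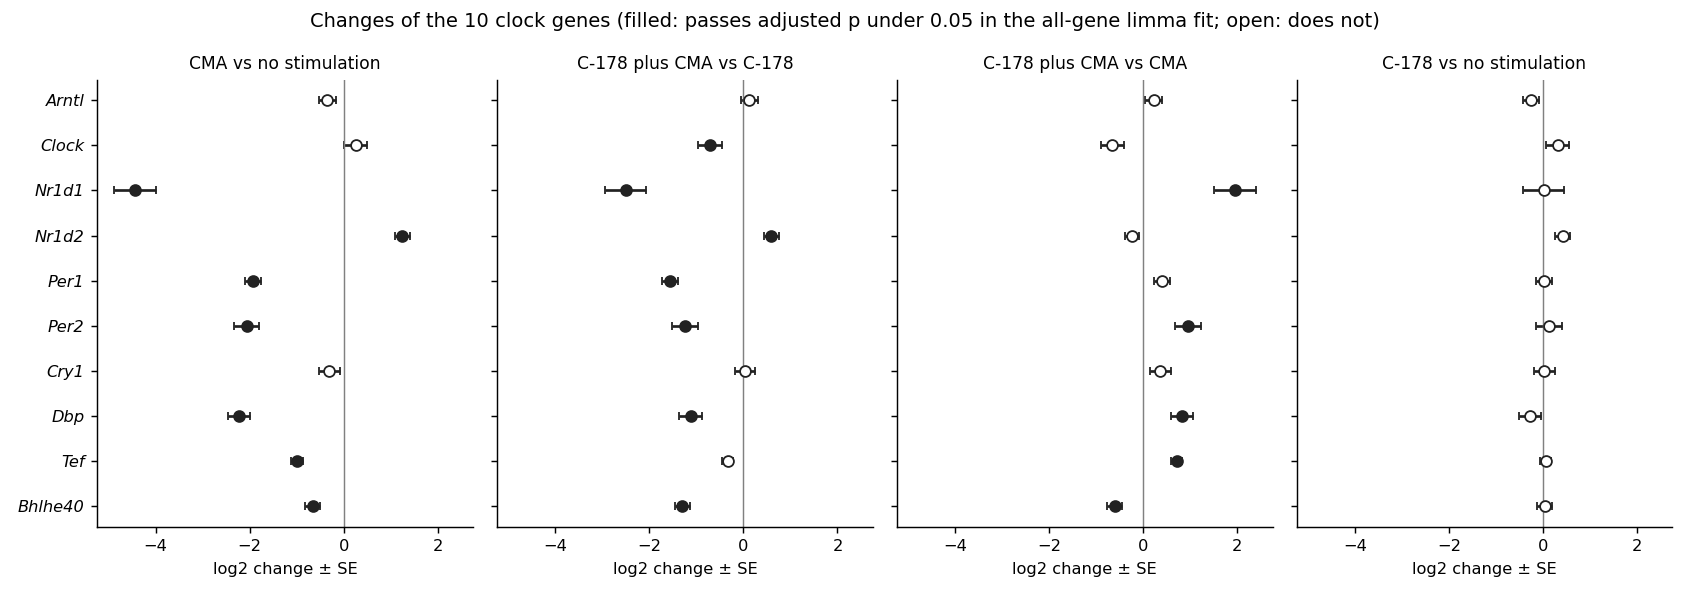
Log2 changes ± SE of the 10 clock genes in 4 comparisons, filled where the gene passed an adjusted p under 0.05 in the limma fit over all genes. CMA changes are at the left, the same changes in the presence of C-178 next to them, then C-178 plus CMA against CMA, and C-178 alone against no stimulation, where no point is filled.

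Set against CMA directly, 4 members were higher and 1 was lower with C-178 plus CMA, and 5 did not pass, where 10.6% of all tested genes were higher and 13.5% were lower, with a median of 0.385 (log2) over members and 0.004 over all tested genes. The higher ones were Nr1d1 (1.95 ± 0.44 log2), Per2 (0.96 ± 0.27), Dbp (0.82 ± 0.24) and Tef (0.71 ± 0.12), and Bhlhe40 was lower (-0.61 ± 0.16). In means, Nr1d1 was 3.25-fold higher with the combination than with CMA, and Tef 1.64-fold. Without the first CMA library, which holds 14 of the 19 Nr1d1 reads of that group, the Nr1d1 fold of means was 7.45 and the fitted change 2.65, while a pseudocount of 8 gave 1.32. Every combined library was above every CMA library for Nr1d1, Per1, Per2, Tef and Arntl, and every one was below for Bhlhe40. Such separation was not counted over all tested genes here either. The call for Tef held in all 17 alternatives. Nr1d1 (adjusted p = 0.0726), Per2 (0.13), Dbp (0.13) and Bhlhe40 (0.13) did not pass with only these 6 libraries in the limma fit. The Per2 call was lost in 8 of 17 alternatives, among them edgeR (adjusted p = 0.0526), DESeq2 (0.0634) and array weights (0.0930). It was also lost without the second (adjusted p = 0.0814) or the third CMA library (0.0700) or the third combined library (0.0701). The Dbp call was lost without the same libraries (limma adjusted p = 0.10, 0.11 and 0.0760), and that of Bhlhe40 with array weights (0.0998) and without the second CMA library (0.0826).

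Against no stimulation, the combination left 5 members lower and 1 higher, and 4 did not pass, where 10.5% of all tested genes were lower and 11.1% were higher, with a median of -0.76 (log2) over members and 0.005 over all tested genes. The values were -2.49 ± 0.44 (log2 ± SE) for Nr1d1, -1.53 ± 0.17 for Per1, -1.40 ± 0.24 for Dbp, -1.26 ± 0.16 for Bhlhe40, -1.11 ± 0.27 for Per2 and 1.01 ± 0.16 for Nr1d2. Tef, at -0.28 ± 0.12, did not pass. The Per2 call was lost without the first unstimulated library (adjusted p = 0.0591).

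Whether the CMA change itself differed with and without C-178 was tested with an interaction term. Only Tef passed (0.66 ± 0.17 log2, limma), so 1 member was higher and 0 were lower, where 3.95% of all tested genes were higher and 5.99% were lower. That call was lost in 8 of 21 alternatives, each of which left out 1 library. Nr1d1 (1.94 ± 0.62) and Dbp (1.10 ± 0.34) did not pass with all libraries, and did so without the first CMA library (2.63 and 1.36), without the second combined library, with array weights and with DESeq2. For Bhlhe40 the term was -0.64 ± 0.23, for Nr1d2 -0.66 ± 0.22 and for Clock -0.97 ± 0.35. Those 3 did not pass, and did so without the second combined library.

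The members were also set against each other library by library. Over the 12 libraries, the log2 values of Nr1d1 correlated with those of Dbp (Pearson r = 0.968), Per2 (0.958), Per1 (0.94) and Tef (0.937), and inversely with Nr1d2 (-0.865), while Clock (0.017), Cry1 (0.294) and Arntl (0.36) followed it little. These 12 points share the 4 treatments, so r describes mostly the treatment groups. Among 8196 other genes with a mean above 100 normalised counts, those most like Nr1d1 were Snx33 (0.985), Dcaf5 (0.983), Bmf (0.978), Mast3 (0.977) and Crtc3 (0.975). Those most like Per1 were Elmsan1 (0.993), Slc16a6 (0.992), Rin3 (0.989), Ggta1 (0.987) and Asxl1 (0.987).

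The rest of the clock machinery was followed through a list of 30 other genes, of which 24 passed the filter. With CMA, 8 of the 24 rose, 4 fell and 12 did not pass, with a median of 0.11 on the log2 scale, where 19.4% of all tested genes were higher, 17.9% were lower and the median was -0.01. The opposing D-box factor Nfil3 (E4BP4), which represses where Dbp and Tef activate, had 212, 191 and 58.1 normalised counts with C-178 plus CMA, 503, 555 and 512 with CMA, 68.1, 51.2 and 59.6 with C-178, and 44.1, 50.8 and 59.5 without stimulation. It rose with CMA by 3.33 ± 0.36 (log2 ± SE, limma, adjusted p = 5.5e-06), and the third combined library lay within the range of the groups without CMA. Sirt1, a deacetylase that acts on clock proteins, averaged 300.4 ± 104 normalised counts with C-178 plus CMA, 1855 ± 225 with CMA, 198 ± 21.7 with C-178 and 157 ± 15.1 without stimulation, a rise with CMA of 3.55 ± 0.21 (adjusted p = 1.3e-08, limma).

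Other risers with CMA were Timeless (1.69 log2), better known in mammals for work at replication forks, the kinase gene Gsk3b (1.50) and Nono (1.03), an RNA-binding partner of PER. The fallers were Bhlhe41 (DEC2, the paralogue of Bhlhe40, -2.60), the deubiquitinase gene Usp2 (-2.06), Csnk1e, a casein kinase gene whose product phosphorylates PER (-1.64), and Per3 (-0.98). Their adjusted p ran between 1.2e-07 and 0.00057 (limma). Bhlhe41 had 76.6 ± 7.08 normalised counts with C-178 plus CMA, 37.7 ± 9.43 with CMA, 303 ± 33.6 with C-178 and 230 ± 20.4 without stimulation. Cry2 (-0.19 ± 0.16) and Rora (0.16 ± 0.25), which encodes the activator that shares ROREs with the REV-ERB receptors, did not pass. Npas2, a relative of Clock, stood at 1.45 to 5.92 normalised counts over all 12 libraries and was not tested.

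**Figure D4:**
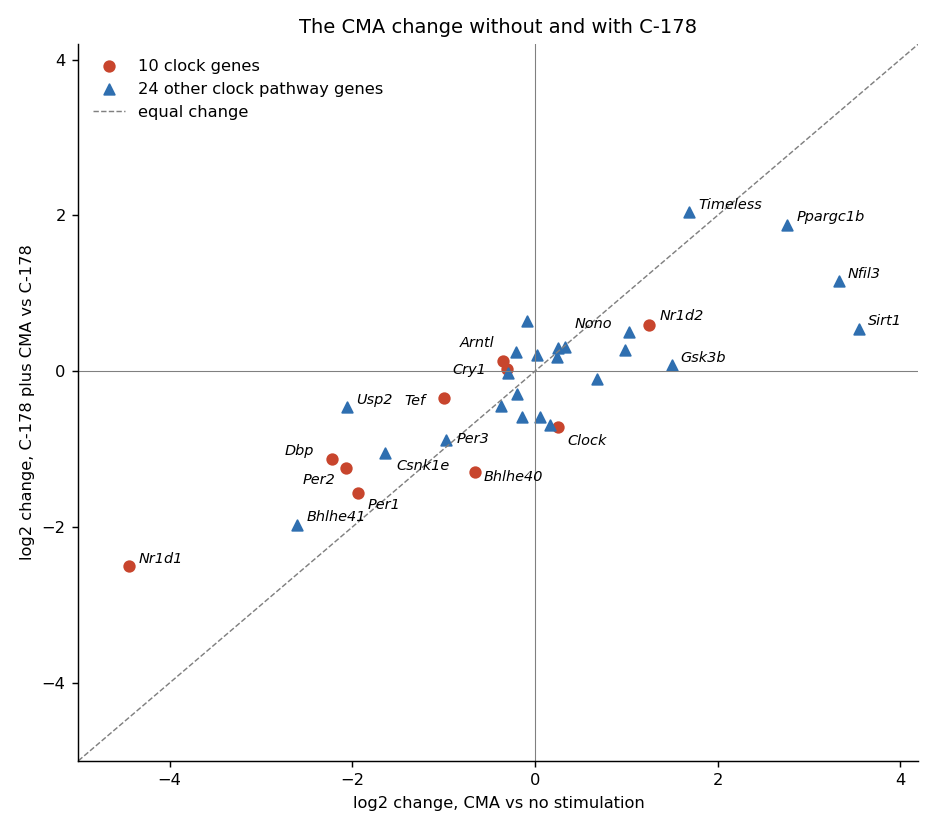
Log2 change with CMA against no stimulation (x axis) and with C-178 plus CMA against C-178 (y axis) for the 10 clock genes (circles) and 24 other clock pathway genes (triangles), with a dashed line of equal change. The 2 axes use different libraries. Sirt1, Nfil3 and Gsk3b lie farthest below the line on the side of rises, Timeless lies above it, and among genes that fell with CMA by the fit Bhlhe40 lies below it.

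With C-178 alone, 0 of the 24 rose and 0 fell (limma), 0 had an unadjusted p under 0.05, and the largest size among Nfil3, Rora, Cry2, Per3 and Bhlhe41 was 0.45 ± 0.25 (log2 ± SE) for Rora. Against CMA, 3 of the 24 rose and 8 fell with C-178 plus CMA, where 10.6% of all tested genes were higher and 13.5% were lower. The rises were in Usp2 (1.54), Bhlhe41 (1.03) and Csnk1e (0.73), and falls included Sirt1 (-2.67), Nfil3 (-1.96), Gsk3b (-1.20) and Sfpq (-0.43), an RNA-binding protein gene. The adjusted p of these 7 ran between 4.7e-06 and 0.0257 (limma), and the Sfpq call was lost in 8 of 17 alternatives. The Bhlhe41 call was lost with only these groups in the fit (limma adjusted p = 0.0504). Without the third combined library the Nfil3 change was -1.37. Against C-178, 4 rose with C-178 plus CMA, namely Timeless (2.04), Ppargc1b (1.88), a coactivator gene, Nfil3 (1.16) and Gnb2l1 (0.65), which encodes the scaffold RACK1, and 4 fell, namely Bhlhe41 (-1.97), Csnk1e (-1.06), Per3 (-0.88) and Sfpq (-0.59), where 13.5% of all tested genes were higher and 12.6% were lower. The Nfil3 call was lost in 6 of those 17 alternatives, among them leaving out the first or second combined library or the second or the third C-178 library (adjusted p 0.0735 to 0.12). Without the third combined library its change was 1.75. Without the third C-178 library the limma change of Ppargc1b was 1.19 (adjusted p = 0.0622), without the second that of Gnb2l1 was 0.55 (0.0647), and with quantile normalisation Gnb2l1 had 0.33 (0.21). Against no stimulation 3 rose and 5 fell with the combination, where 11.1% of all tested genes were higher and 10.5% were lower. Of the 24, 19 had the same sign for CMA with and without C-178 (79.2%, against 63.5% of all tested genes).

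The CMA change differed with and without C-178 for 4 of the 24, with Usp2 higher (1.59 ± 0.24 log2) and Sirt1 (-3.01 ± 0.29), Gsk3b (-1.42 ± 0.21) and Nfil3 (-2.17 ± 0.51) lower under C-178, where 3.95% of all tested genes were higher and 5.99% were lower. Without the third combined library the Nfil3 difference was -1.58. In Usp2 the mean was 110.9 ± 12.02 normalised counts with C-178 plus CMA, 37.8 ± 7.10 with CMA, 152 ± 5.13 with C-178 and 159 ± 10.8 without stimulation. The adjusted p of the 4 lay between 1.1e-04 and 0.0208 (limma).

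Macrophage genes reported as repressed by the REV-ERB receptors were read as an 8-gene list beside the receptors. With CMA 5 rose, 1 fell and 2 did not pass, where 19.4% of all tested genes were higher and 17.9% were lower. The rises were in the cytokine genes Il6 (6.75 ± 0.53 log2), Il10 (1.53 ± 0.21) and Il1b (0.82 ± 0.16), the chemokine gene Ccl2 (4.56 ± 0.14) and the receptor gene Tlr4 (0.63 ± 0.22), and the fall was in the chemokine receptor gene Cx3cr1 (-1.0 ± 0.27). The inflammasome gene Nlrp3 (0.24 ± 0.24) and the metalloproteinase gene Mmp9 (-0.04 ± 0.22) did not pass. The Tlr4 call was lost in 6 of 16 alternatives. With C-178 plus CMA against CMA, Il6 (-3.15), Il1b (-1.57), Nlrp3 (-1.03) and Ccl2 (-0.65) fell and Il10 rose (0.88), where 13.5% of all tested genes were lower and 10.6% were higher. The Ccl2 fall did not pass with quantile normalisation (adjusted p = 0.0519, limma), nor did Nlrp3 (0.0677) and Il10 (0.0601) with only these 2 groups in the fit. Against C-178, Ccl2 (4.34), Il6 (4.42) and Il10 (3.04) rose and Nlrp3 (-0.82) and Il1b (-0.48) fell, where 13.5% of all tested genes were higher and 12.6% were lower. The Il6 change was 3.56 without the second C-178 library, 3.62 with array weights and 2.81 with a pseudocount of 8, and that with CMA alone was 5.63 with a pseudocount of 8. The Nlrp3 call was lost in 3 of 17 alternatives and the Il1b call in 8 of 17, among them the fit with library numbers as a block (Il1b adjusted p = 0.12, limma). Most of these genes are also direct targets of inflammatory signalling, and the values do not tie any of them to Nr1d1 or Nr1d2.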

How the data were processed

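The authors deposited 1 table of normalised counts (a signal per gene and library, 24062 entries), and the scaling by size factors is inferred from its header. Per the submitters' processing notes, Bowtie2 2.2.1, limma 3.18.13 and mm10 were used, while no source used here names the counting tool, annotation or strand setting. Each column divided by its smallest step gave whole reads for 100% of values (tolerance 0.01). Another 12 columns, of Cook's distances, were left out. Labels number the libraries, and 2 unstimulated columns share a heading, so unstimulated libraries are called 1, a and b (the first is 1).

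A gene was tested if 3 or more of 12 libraries exceeded 10 normalised counts (11440 genes). Log2 of value + 1 was fitted by limma 3.58.1 (R 4.3.3, eBayes with trend) over all 12 libraries, adjusted by Benjamini and Hochberg over all tested genes, and called at adjusted p under 0.05. An exact permutation test of 3 against 3 libraries cannot go below 0.1 and was not used. Alternatives were pseudocounts of 0.5 and 8, no filter and a filter of 50, TMM, quantile normalisation, array weights, fits of the compared groups alone, a replicate block, edgeR 4.0.16 and DESeq2 1.42.0 on recovered reads, and leaving out each library. The fit was also run on simulated counts for CMA against no stimulation, with the same dispersion for every gene. That setting lacks the wider spread seen with C-178 plus CMA, so nothing is read from it for the other comparisons.

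Members and lists were chosen with earlier results of these data known. Named were all members, Nfil3, Rora, Cry2, Npas2, Per3, Bhlhe41 and up to 8 other called clock genes per comparison by adjusted p, the 8 REV-ERB genes, genes with an entry that overlap a member, and the 5 genes most correlated with Nr1d1 and with Per1. Overlapping genes without an entry were Ube2n-ps1 and Gm43658 on the strand of Clock, and Gm45355 and Gm17597 opposite Arntl and Tef. Their part in the reads of these members is not known. Residuals of same-numbered libraries correlated at 0.45, 0.43 and 0.26 between C-178 plus CMA and C-178. Each exceeds 0.1, and these libraries count as paired by number, a pairing read from the correlations alone. The first library was the deepest in both groups (36.4 and 28.5 M reads), and the part of depth in the correlations was not tested. The main fit held no replicate block. Coordinates and transcript lengths are from GENCODE M21, and motifs were searched on both strands. Python 3.11.15, pandas 2.3.3, scipy 1.17.1 and matplotlib 3.10.9 were used. Values of 1 other clock gene in the counts are not reported here.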

Additional observations from a re-analysis of the deposited data

Results flagged for a closer look

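The log2 change with CMA differed with C-178 present and absent (the interaction term of the limma fit, adjusted p under 0.05) for these genes of the lists described. Among the clock genes it was Tef, by 0.655 (adjusted p = 0.0306). Among the other clock pathway genes it was Usp2, by 1.593, Sirt1, by -3.007, Gsk3b, by -1.417, and Nfil3, by -2.174. Among the REV-ERB list it was Il10, by 1.508, and Il1b, by -1.3. The Dbp neighbour Sphk2 differed by 0.785 (adjusted p = 0.0349). A positive value means that the change was more positive, or less negative, with C-178. Leaving out 1 library ended the Tef result in 8 of the leave-outs, that of Sphk2 in 7 and that of Nfil3 in 4, while Usp2, Sirt1, Gsk3b, Il10 and Il1b passed in all 21 alternatives.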

How the results depend on the processing

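With CMA against no stimulation, 7 members passed (7 to 9 over all alternatives, 7 when any library was left out). With C-178 against no stimulation 0 passed, and 2 (Nr1d2 and Clock) did with array weights. With C-178 plus CMA against CMA 5 passed, against 3 with array weights, 1 with only the groups compared and 2 to 7 when 1 library was left out (2 without the second CMA library, 3 without the third CMA library or the third combined one, 7 without the second combined library). The library numbers do not pair these groups (residual correlations of same-numbered libraries -0.14, 0.18 and -0.16), and 2 members passed with the replicate block, under which Bhlhe41 (adjusted p = 0.0640) and Csnk1e (0.0744, limma) did not pass either. With that block, 284 of all tested genes were higher and 747 lower, against 1217 and 1543 in the main fit, so calls were lost in general. In the paired comparison, C-178 plus CMA against C-178, 7 passed (5 to 8), also with the replicate block, which changed no other call there than that of Il1b among the genes named. Over all tested genes the block gave 1563 higher and 1460 lower there, against 1548 and 1440 in the main fit. Against no stimulation 6 passed with the combination (5 to 7). The interaction gave 1, against 5 with array weights, 2 with edgeR, 3 with DESeq2 and 0 to 6 when 1 library was left out (6 without the second combined library, 3 without the first CMA library). Over all tested genes the interaction was higher for 452 and lower for 685 in the main fit. These counts were 541 and 642 with edgeR, and 767 and 993 with DESeq2. With array weights, only the groups compared or a library left out, calls over all genes were not counted. Member counts under those settings are therefore not set against a general shift. No paired analysis was possible for comparisons with unstimulated libraries or for the interaction because 2 unstimulated columns carry no number of their own. The cause of these differences was not tested.

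Signs turned only for changes near 0 that did not pass, and only when 1 library was left out. For C-178 these were Nr1d1 (-0.119 to 0.116), Per1 (-0.091 to 0.141), Per2 (-0.033 to 0.325), Cry1 (-0.077 to 0.131) and Bhlhe40 (-0.032 to 0.079). For C-178 plus CMA they were Cry1 (-0.072 to 0.098) and Arntl (-0.077 to 0.276) against C-178, and Cry1 (-0.047 to 0.124) against no stimulation. Of 1030 alternative values of members, 950 kept both sign and side of the threshold, 38 no longer passed and 27 newly passed. Quantile normalisation moved the median of all genes with CMA to -0.115, against -0.01, and no called member changed sign under any scaling. Depth limits Nr1d1 and Per2 most, with 19 and 23 reads in the CMA group.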
